A study of Mus musculus with 18 samples.

Results

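The peroxisome proliferator-activated receptor alpha (PPAR-alpha, gene Ppara) and 29 genes that it controls in mouse liver, or that take part in the oxidation of fatty acids, were followed across 18 livers. The 30 genes were listed by name, not by a threshold on measured values, although earlier results of these data were known when the list was made. Of them, 29 had a probe set whose annotation names that gene alone and entered the tests, among 12169 genes tested in all. Cyp4a10, a cytochrome P450 that is a classic PPAR-alpha target, was named only by a probe set shared with Cyp4a31 and was not analysed here.

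The livers came from adult female mice of the B6C3F1 hybrid, the cross in which carcinogens are commonly tested, aged 18 weeks, in 6 groups of 3 animals after 13 weeks of exposure that began at 5 weeks of age. The chemical was mixed into feed, 7 days per week, in 3 groups: 1,5-naphthalenediamine at 2000 ppm, N-(1-naphthyl)ethylenediamine dihydrochloride at 2000 ppm, and pentachloronitrobenzene, a fungicide, at 8187 ppm. They shared 1 control group on rodent chow, the feed control. The fifth group received 2,3-benzofuran at 240 mg/kg by gavage on 5 days per week, in corn oil at 5 ml/kg, and its control group received corn oil alone. The labels class 1,5-naphthalenediamine and 2,3-benzofuran as positive liver carcinogens and the other chemicals as negative, and the series asks which expression changes mark the positive ones. Each Affymetrix mouse array held the RNA of 1 animal, so a p-value measures the spread between animals.

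PPAR-alpha is a nuclear receptor that fatty acids and many drugs and industrial chemicals bind, and with its partner RXR it switches on genes of fatty acid uptake and burning in the liver. Fasting raises its activity, and in rodents strong activators enlarge the peroxisome compartment, cause the cytochromes P450 of the Cyp4a family to rise steeply and can lead to liver tumours. Its targets cover omega oxidation in the endoplasmic reticulum, shortening of very long chains in peroxisomes, entry into mitochondria by the carnitine shuttle, mitochondrial beta oxidation, and secreted factors such as FGF21.

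The receptor pair binds a direct repeat of AGGTCA with 1 base between the copies, AGGTCANAGGTCA. Of the 30 genes, 22 have an entry in the RefSeq promoter table (mouse build GRCm38.p6); Cyp4a10, Cyp4a14, Hsd17b4, Acaa2, Decr1, Crat, Angptl4 and Vnn1 do not. The 250 bases before each start were searched on both strands for this motif with at most 2 mismatches among its 12 fixed bases. It was found in 1 of these 22 promoters (4.55%) and in 1063 of all 32851 promoters in the table (3.24%). The 3 promoters below are shown because Fabp1 holds that match, because Hadha and Hadhb, the subunits of the mitochondrial trifunctional protein, lie head to head and share 228 of the 250 bases, and because Fgf21 is 1 of the members whose change passed the test. Capitals mark the match in Fabp1, which lies 55 bases before the start on the opposite strand and has 1 mismatch; Hadhb, the Hadha window and Fgf21 hold none. No match says only that these letters are not in this window.
Fabp1, chr6:71199629-71199878, plus strand: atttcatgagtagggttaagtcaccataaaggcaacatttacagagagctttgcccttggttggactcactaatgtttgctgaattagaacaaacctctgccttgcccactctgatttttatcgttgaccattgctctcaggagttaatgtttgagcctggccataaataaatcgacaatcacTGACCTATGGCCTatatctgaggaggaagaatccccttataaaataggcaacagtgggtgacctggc
Hadhb, chr5:30155003-30155252, plus strand: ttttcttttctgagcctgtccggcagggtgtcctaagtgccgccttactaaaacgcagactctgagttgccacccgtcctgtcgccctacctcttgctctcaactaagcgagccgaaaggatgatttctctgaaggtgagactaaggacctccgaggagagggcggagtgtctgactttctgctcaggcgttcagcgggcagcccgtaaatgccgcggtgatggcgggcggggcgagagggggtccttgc
Fgf21, chr7:45615491-45615740, minus strand: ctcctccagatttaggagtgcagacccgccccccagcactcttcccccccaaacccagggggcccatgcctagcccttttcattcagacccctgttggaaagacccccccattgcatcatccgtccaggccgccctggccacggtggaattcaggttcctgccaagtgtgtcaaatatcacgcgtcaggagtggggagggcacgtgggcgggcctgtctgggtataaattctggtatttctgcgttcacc

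Most of the genes were measured well above the dim end of the array. Their mean log2 signals ran from 6.02 for Fgf21 to 13.9 for Fabp1, and 25 of the 29 had a mean of 9 or more, against 14.7% of all tested genes. Fgf21 and Pdk4 came closer to the dim end, with lowest values of 5.16 and 4.75 beside array medians of 4.25 to 4.35. The median spread of the 29 genes within groups was 0.139 (SD, log2), against 0.154 over all tested genes. The hepatocyte markers Alb and Hnf4a had means of 14.5 and 11.3, whereas the fat cell markers Adipoq and Lep stood at 2.93 and 3.14, under the lowest array median of 4.25. In whole liver, fewer cells of a type and less RNA per cell cannot be told apart.

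Some arrays stood apart. Treated arrays lay higher than controls over most genes, with upper quartiles of 6.32 to 6.41 against 6.10 to 6.26. Every change below therefore has the median over the 12169 genes subtracted, which was 0.175 (log2) for 1,5-naphthalenediamine, 0.155 for N-(1-naphthyl)ethylenediamine, 0.148 for pentachloronitrobenzene, 0.109 for 2,3-benzofuran and 0.0387 for corn oil. A gene was counted as changed when limma's Benjamini-Hochberg adjusted p over all tested genes was under 0.05 in the same direction on 3 scales. These were the deposited values, the same after quantile normalization, and those after every array was shifted to a common median over the tested genes. The p printed is the largest of the 3. Each p tests the change on its own scale, which on the deposited scale is the change before the median was subtracted. Feed control animal 29 lay below both other feed controls in 16 of the 29 members after quantile normalization, and animal 28 of the same group above both in 23. Among the animals on pentachloronitrobenzene, 18 lay above both others in 27 members and 16 below both in 19. Signal of 18S ribosomal RNA, usually removed by priming on messenger RNA, was high on 5 arrays, all of treated animals: 14 and 12 on N-(1-naphthyl)ethylenediamine, 6 and 10 on 2,3-benzofuran, and 4 on 1,5-naphthalenediamine, at 7.93 to 11.6 against 5.94 to 6.97 on the others.

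Few of the 29 genes changed under any chemical. Under 1,5-naphthalenediamine 2 rose and 0 fell (15.9% of all tested genes changed, 8.67% up and 7.23% down). Under 2,3-benzofuran 0 rose and 3 fell (16.6% of all tested genes, 10.3% up and 6.36% down). Under N-(1-naphthyl)ethylenediamine 1 rose and 1 fell (8.99%, 5.23% up and 3.76% down). Under pentachloronitrobenzene 0 rose and 1 fell (4.99%, 2.09% up and 2.9% down), and between the corn oil and feed controls 0 changed (0.0329%). The shares of the members were thus 6.90%, 10.3%, 6.90%, 3.45% and 0%. Among the 1785 tested genes with a mean signal of 9 or more, the shares for the 4 chemicals were 16.3%, 23.9%, 7.68% and 3.19%. With 0 to 3 members called, these shares do not set the members apart from other genes. Between the control groups, limma gave an unadjusted p under 0.05 for 2 members on the deposited scale and for 5 after quantile normalization. Over all 12169 tested genes the same was true of 1152 and 1175. For the chemicals it held, on the deposited scale, for 6106 genes under 1,5-naphthalenediamine and 5287 under 2,3-benzofuran. It held for 5119 under N-(1-naphthyl)ethylenediamine and 4517 under pentachloronitrobenzene. These counts stand beside every count at an unadjusted p below. The 3 feed comparisons share their controls and are not independent of each other.

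**Figure D1:**
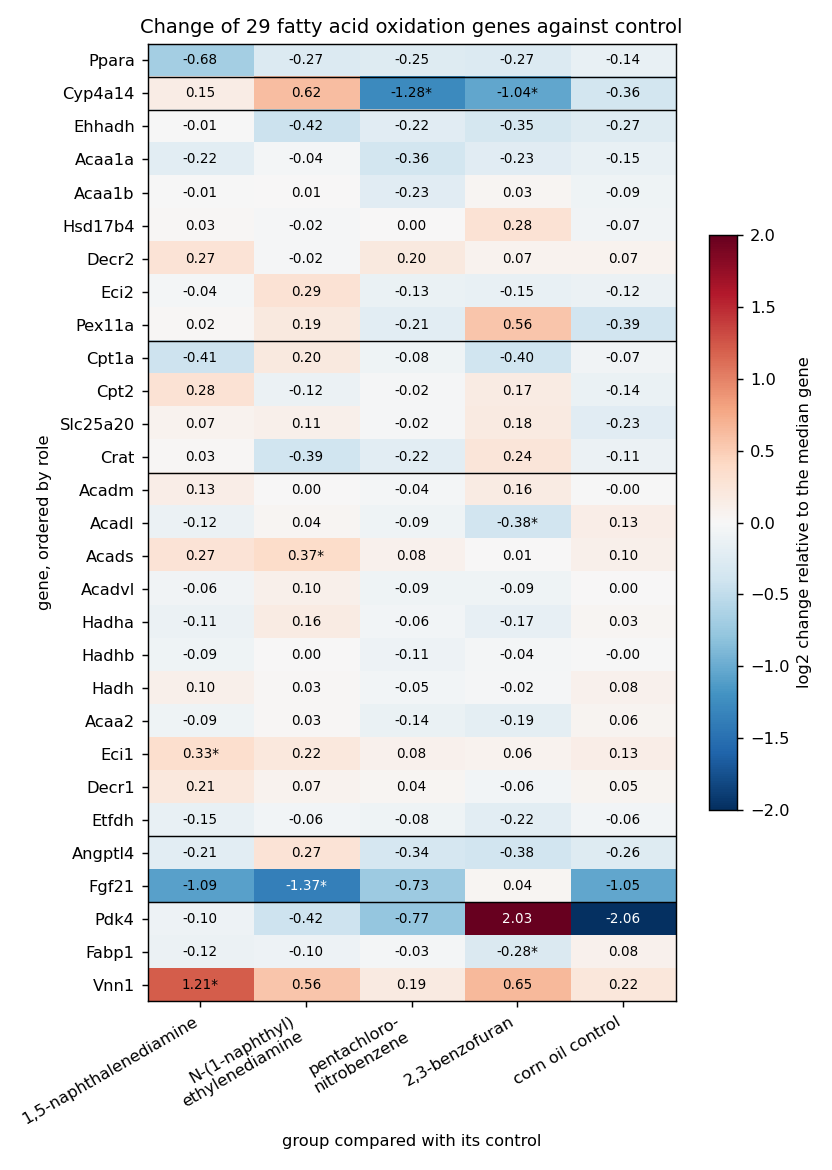
Log2 change of the 29 genes (rows, ordered by role and divided by lines) in each group against its control (columns), relative to the median gene, with n = 3 animals per group; red is higher, blue is lower, and an asterisk marks a change that passed on all 3 scales. Most cells are pale, the largest called values are -1.37 for Fgf21, -1.28 for Cyp4a14 and 1.21 for Vnn1, and the strongest colours, for Pdk4 under 2,3-benzofuran and corn oil, carry no asterisk.

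The median change of the 29 genes was -0.01 under 1,5-naphthalenediamine, -0.04 under 2,3-benzofuran, 0.03 under N-(1-naphthyl)ethylenediamine and -0.09 under pentachloronitrobenzene. Over the 1785 tested genes with a mean signal of 9 or more it was 0.04, 0.04, 0.04 and 0.03. Within 0.5 of the median gene lay 26, 25, 26 and 26 of the 29 genes. The heat map of changes shows this as mostly pale columns. How many members passed depended on the scale. On the deposited values alone 8 rose and 0 fell under 1,5-naphthalenediamine (31.5% and 8.41% of all tested genes), while after centring 2 rose and 5 fell (9.22% and 24.9%). For 2,3-benzofuran 4 rose and 3 fell on deposited values (24.8% and 7.58%), against 0 and 8 after centring (11.2% and 21.5%). For N-(1-naphthyl)ethylenediamine the counts were 6 and 1 (24.7% and 4.37%) against 1 and 2 (5.49% and 15.1%). For pentachloronitrobenzene they were 0 and 1 (14.6% and 3.87%) against 0 and 2 (2.56% and 13.4%). The split between higher and lower thus moved with the scale, for the members as for all genes.

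Ppara itself, the receptor, did not pass in any comparison. The feed controls 27, 28 and 29 had log2 signals of 11.22, 11.75 and 10.99, and animals 2, 4 and 5 on 1,5-naphthalenediamine 11.17, 10.23 and 11.07. Animal 4, an array with high 18S signal, was the lowest of all 18, and the groups overlapped. The difference was -0.68 ± 0.25 (SE, n = 3 per group). Limma's adjusted p was 0.114 on the deposited scale, 0.0483 after quantile normalization and 0.0287 after centring. The first of these belongs to the change before subtraction, from a mean of 11.32 to 10.82. Ppara ranged from 11.06 to 11.30 on N-(1-naphthyl)ethylenediamine, from 10.93 to 11.74 on pentachloronitrobenzene, from 10.86 to 11.26 on 2,3-benzofuran and from 10.84 to 11.58 in corn oil controls, and those ranges all overlap the controls'. Its probe sets did not all give 1 direction. Under N-(1-naphthyl)ethylenediamine the brightest gave -0.27 and the others 0.30 and 0.37, whereas under 1,5-naphthalenediamine all 3 were below 0 (-0.68, -0.32 and -0.41).

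Cyp4a14, which hydroxylates the omega end of fatty acids and is among the most inducible PPAR-alpha targets of mouse liver, fell under pentachloronitrobenzene and under 2,3-benzofuran. The feed controls 27, 28 and 29 had log2 signals of 11.52, 11.63 and 10.86, and animals 16, 18 and 20 on pentachloronitrobenzene 9.53, 10.90 and 10.17. Animals 16 and 20 lay below every feed control, and animal 18 overlapped feed control 29. The fall was -1.28 ± 0.28 (SE, n = 3 per group), 2.43-fold (limma adjusted p = 0.0154; 2.9% of all tested genes fell in this comparison). Without animal 16 it was -0.95 and missed the threshold (adjusted p = 0.0838).

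In corn oil controls 22, 24 and 25 Cyp4a14 stood at 11.13, 10.82 and 11.08, and in animals 6, 8 and 10 on 2,3-benzofuran at 9.49, 10.25 and 10.49. All 3 treated animals were below all 3 controls. The fall was -1.04 ± 0.28 (SE, n = 3 per group), 2.05-fold (limma adjusted p = 0.0193; 6.36% of all tested genes fell). It missed the threshold without animal 6, the lowest (-0.74, adjusted p = 0.112), and without control 22 (-0.96, adjusted p = 0.0569) or 25 (-1.01, adjusted p = 0.0543).

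On the other feed chemicals Cyp4a14 did not pass on all 3 scales. Animals 2, 4 and 5 on 1,5-naphthalenediamine had 11.40, 11.81 and 11.78, overlapping the feed controls, and the difference was 0.15 with a 95% interval from -0.44 to 0.75. Animals 12, 14 and 15 on N-(1-naphthyl)ethylenediamine had 12.24, 11.81 and 12.28. They were above every feed control, and the difference was 0.62 ± 0.28. It passed only on the deposited scale, tested before the median was subtracted (limma adjusted p = 0.0476, and 0.165 after centring). In order of mean signal the groups were N-(1-naphthyl)ethylenediamine (12.1 ± 0.26, SD, n = 3), 1,5-naphthalenediamine (11.7 ± 0.23), feed control (11.3 ± 0.42), corn oil control (11.01 ± 0.17), pentachloronitrobenzene (10.2 ± 0.68) and 2,3-benzofuran (10.1 ± 0.52). The ranges of the naphthalene amines met at 11.81, the feed control overlapped both of its neighbours in that order, and pentachloronitrobenzene overlapped 2,3-benzofuran and the corn oil controls.

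**Figure D2:**
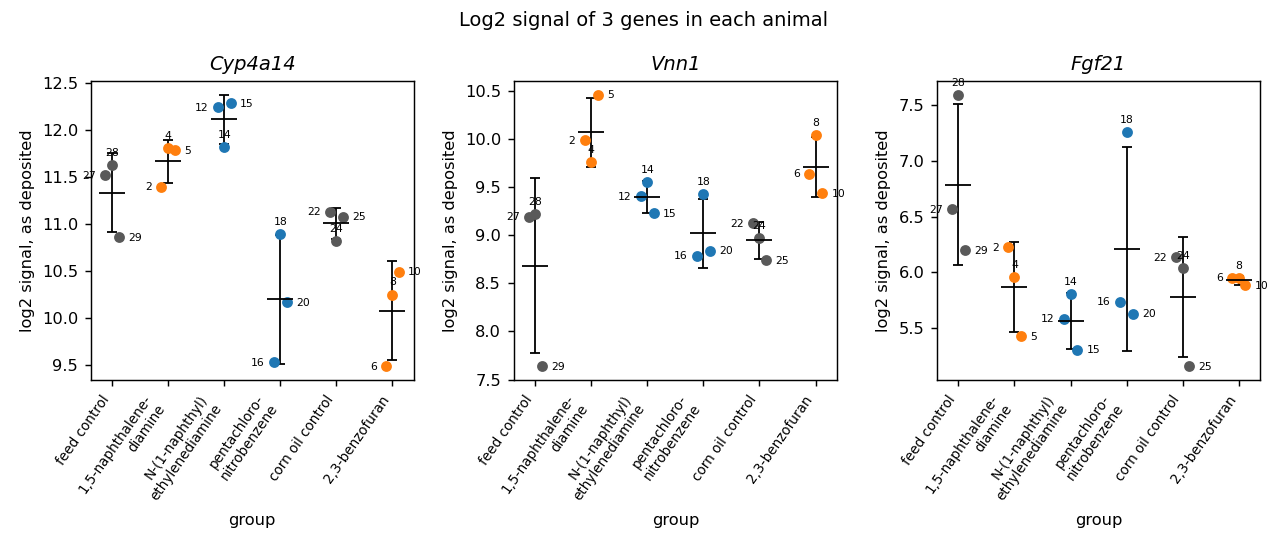
Deposited log2 signal (vertical axis) of Cyp4a14, Vnn1 and Fgf21 in each animal (points, with animal numbers), by group (horizontal axis); long bars are group means and capped bars 1 SD (n = 3), with controls grey, positive carcinogens orange and negative chemicals blue. Cyp4a14 is lowest on pentachloronitrobenzene and 2,3-benzofuran, Vnn1 highest on 1,5-naphthalenediamine with feed control 29 far below the other animals, and Fgf21 highest in feed control 28 and animal 18.

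The omega oxidation genes outside the list moved in both directions. Of 6 tested, 1 fell under 1,5-naphthalenediamine (7.23% of all tested genes fell). Under 2,3-benzofuran 2 fell and 1 rose (6.36% and 10.3%), and 1 fell under N-(1-naphthyl)ethylenediamine (3.76%). Cyp4f14, which inactivates leukotrienes, was the gene that fell under all 3 (-0.71 ± 0.13, -0.76 ± 0.13 and -0.51 ± 0.13, SE). Cyp4a12a, a fatty acid hydroxylase of male mouse liver, was at 7.92, 7.96 and 7.89 in the 3 animals on 2,3-benzofuran. In the corn oil controls it was at 3.18 to 3.44, under the lowest array median of 4.25, so no fold is given; the rise passed (limma adjusted p = 2.85e-11). Thus on 2,3-benzofuran Cyp4a14 was lower and Cyp4a12a higher than in every corn oil control.

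None of the 7 peroxisomal members passed against a control in any of the 5 comparisons. They were Ehhadh (the bifunctional enzyme), Acaa1a and Acaa1b (thiolases), Hsd17b4 (the second bifunctional enzyme), Decr2 and Eci2 (which handle double bonds) and Pex11a (which promotes division of peroxisomes). Limma's unadjusted p was under 0.05 for 2 of them under 1,5-naphthalenediamine, 2 under 2,3-benzofuran, 1 under N-(1-naphthyl)ethylenediamine, 1 under pentachloronitrobenzene and 0 in corn oil on the deposited scale. Over all 12169 tested genes the counts were 6106, 5287, 5119, 4517 and 1152 in that order. The changes of these 7 members lay between -0.22 and 0.27 under 1,5-naphthalenediamine, -0.35 and 0.56 under 2,3-benzofuran, -0.42 and 0.29 under N-(1-naphthyl)ethylenediamine, and -0.36 and 0.20 under pentachloronitrobenzene.

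Pex11a was the highest of them under 2,3-benzofuran, at 10.23 to 10.36 against 9.42 to 9.77 in corn oil controls. The groups did not overlap, and both of its probe sets gave a similar difference (0.56 and 0.63). It passed on the deposited scale (adjusted p = 0.0164) but not after quantile normalization (0.0571) or centring (0.0743). Hsd17b4 was likewise higher in all 3 animals (0.28 ± 0.08), with adjusted p from 0.00186 to 0.0543 over the scales, while its second probe set gave 0.06. Ehhadh gave -0.35 (95% interval -0.75 to 0.05) under 2,3-benzofuran and -0.42 (-0.82 to -0.03) under N-(1-naphthyl)ethylenediamine.

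Among 18 tested peroxisomal genes outside the list, 5 rose and 2 fell under 1,5-naphthalenediamine (8.67% and 7.23% of all tested genes). Under 2,3-benzofuran 3 rose and 2 fell (10.3% and 6.36%). Under N-(1-naphthyl)ethylenediamine 0 rose and 1 fell (5.23% and 3.76%). Under pentachloronitrobenzene 0 passed (4.99% of all tested genes did), with limma's unadjusted p under 0.05 for 5. Acox2, an oxidase of branched chains and bile acid intermediates, rose under both positive carcinogens (0.53 ± 0.11 and 0.44 ± 0.11, SE), as did Pex11g (0.46 ± 0.12 and 0.41 ± 0.12). Pex13, part of the import machinery, rose under 1,5-naphthalenediamine (0.44 ± 0.10), and Pex3, a factor of membrane assembly, under 2,3-benzofuran (0.52 ± 0.14). The genes that fell were named after their values were seen. Abcd2, a transporter of very long chains, fell under both positive carcinogens (-1.18 ± 0.25 and -0.83 ± 0.25), and Pecr under 2,3-benzofuran (-0.45 ± 0.11). Acox3 fell under 1,5-naphthalenediamine (-0.65 ± 0.14) and N-(1-naphthyl)ethylenediamine (-0.72 ± 0.14). It was dim, at means of 4.87 and 4.78 against 5.35 in feed controls. In these comparisons tested genes with means under 5 shifted by a median of -0.29 and -0.20.

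The carnitine shuttle carries long chains into mitochondria. Cpt1a, the regulated outer enzyme, Cpt2, the inner one, the carrier Slc25a20 and Crat, which acts on short chains, did not pass against a control. Limma's unadjusted p on the deposited scale was under 0.05 for 2 of these 4 under 1,5-naphthalenediamine, 3 under 2,3-benzofuran, 2 under N-(1-naphthyl)ethylenediamine and 0 under pentachloronitrobenzene. Over all 12169 tested genes the counts were 6106, 5287, 5119 and 4517 in that order. Cpt1a and Cpt2 nevertheless differed between the 2 naphthalene amines, which were given at the same concentration in feed (below). Of 6 other tested shuttle genes only Slc22a5, the carnitine importer, passed, under N-(1-naphthyl)ethylenediamine (0.60 ± 0.17, SE, limma adjusted p = 0.0282). Of all tested genes 5.23% rose in that comparison.

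The 11 enzymes of mitochondrial beta oxidation varied little. Within groups Acaa2, Acadvl, Acadl, Hadh and Acadm had an SD at the 1.86, 3.31, 5.99, 8.73 and 9.80 percentile of all tested genes, whereas Ppara, Cyp4a14, Vnn1, Fgf21 and Pdk4 were at the 97.1 percentile or above. Of the 11, Eci1, Acads and Acadl changed, each under 1 chemical. Eci1, which shifts double bonds, rose under 1,5-naphthalenediamine from 10.21, 10.25 and 9.81 in feed controls to 10.61, 10.54 and 10.64, with no overlap. The change was 0.33 ± 0.10 (SE, n = 3 per group; limma adjusted p = 0.0317; 8.67% of all tested genes rose), and it missed the threshold without feed control 29 (0.25, adjusted p = 0.177), animal 2 (adjusted p = 0.0701) or animal 5 (adjusted p = 0.117).

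Acads, the short-chain dehydrogenase, rose under N-(1-naphthyl)ethylenediamine to 9.43, 9.47 and 9.27 from 8.85, 8.95 and 8.78. The groups did not overlap and the change was 0.37 ± 0.10 (SE, n = 3 per group; limma adjusted p = 0.0264; 5.23% of all tested genes rose). It missed the threshold without control 27 (adjusted p = 0.0772), control 29 (0.0526), animal 12 (0.0785) or animal 14 (0.0831). With the difference between 3' and 5' beta-actin probes as a covariate it was 0.17 (adjusted p = 0.607); that measure was 1.45 to 1.85 on N-(1-naphthyl)ethylenediamine and 0.899 to 0.995 in feed controls, and RNA integrity numbers were 7.7 to 8.1 against 8.8 to 9.1.

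Acadl, the long-chain dehydrogenase, fell under 2,3-benzofuran. All 3 treated animals were at 10.58, below corn oil controls 22, 24 and 25 at 10.74, 10.96 and 10.87. The change was -0.38 ± 0.08 (SE, n = 3 per group; limma adjusted p = 0.0193), and it missed the threshold without control 24 (-0.34, adjusted p = 0.0909) or 25 (-0.38, adjusted p = 0.0542). Against the controls of the other groups Acadl lay between -0.12 and 0.13.

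Over all 4 chemicals, the 95% intervals of these 11 enzymes, taken 1 gene at a time, lay between -0.56 and 0.59, so a change of 1 on the log2 scale, in either direction, was outside every interval. The plot of intervals shows it. Hadha and Hadhb, whose promoters overlap, gave -0.11 and -0.09 under 1,5-naphthalenediamine, 0.16 and 0.00 under N-(1-naphthyl)ethylenediamine, -0.06 and -0.11 under pentachloronitrobenzene and -0.17 and -0.04 under 2,3-benzofuran. Neither passed. Of 12 other mitochondrial oxidation genes, Hsd17b10 and Hibch, which act on branched-chain amino acids, rose under 1,5-naphthalenediamine (0.43 ± 0.09 and 0.47 ± 0.11, SE). Hibch also rose under 2,3-benzofuran (0.50 ± 0.11). Of all tested genes 8.67% and 10.3% rose in these comparisons. The other 2 chemicals gave 0 calls among these 12, with unadjusted p under 0.05 for 3 each (limma).

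**Figure D3:**
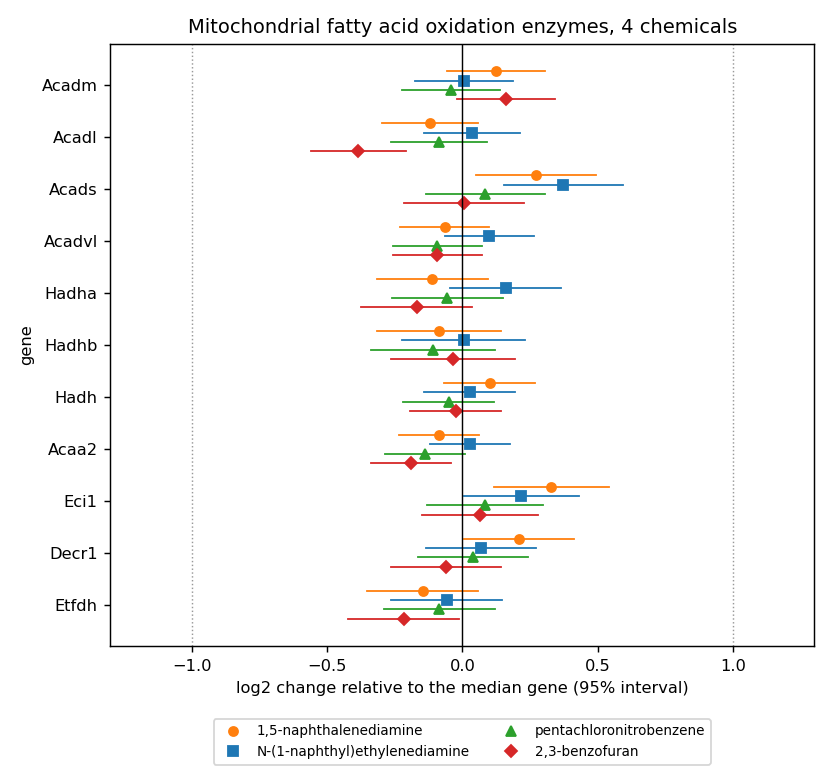
Log2 change relative to the median gene (horizontal axis) of 11 mitochondrial fatty acid oxidation enzymes (vertical axis) under each chemical against its own control; points are estimates from n = 3 animals per group, lines 95% intervals, and dotted lines mark a change of 1. All intervals lie between -0.56 and 0.59, and Acadl under 2,3-benzofuran stands to the left of the rest.

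Fgf21, a fasting hormone secreted by the liver, was the dimmest member. It stood at 6.57, 7.59 and 6.201 in feed controls 27, 28 and 29, and at 5.59, 5.81 and 5.31 in animals 12, 14 and 15 on N-(1-naphthyl)ethylenediamine. Every treated animal was below every control. The fall was -1.37 ± 0.38 (SE, n = 3 per group), 2.59-fold (limma adjusted p = 0.025; 3.76% of all tested genes fell). It missed the threshold without control 28, the highest (-1.005, adjusted p = 0.107), without animal 12 (-1.37, adjusted p = 0.0711) or without animal 15 (-1.25, adjusted p = 0.0798). With an index of clock genes, defined with Pdk4 below, as a covariate it was -0.53 (adjusted p = 0.613); all 3 treated animals and no feed control had an index above 2.

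In the other groups Fgf21 was at 6.22, 5.96 and 5.43 on 1,5-naphthalenediamine, at 5.74, 7.26 and 5.63 on pentachloronitrobenzene, at 6.14, 6.04 and 5.16 in corn oil controls, and at 5.95, 5.95 and 5.89 on 2,3-benzofuran. Only feed control 28 and animal 18 were above 7, and these are also the animals that lay above their group in most members. Against feed controls the difference was -1.09 ± 0.38 for 1,5-naphthalenediamine (adjusted p from 0.0229 to 0.0609 over the scales) and -1.05 ± 0.38 for corn oil (0.344 to 0.384), neither of which passed. Angptl4, a secreted inhibitor of lipoprotein lipase, ranged from -0.38 under 2,3-benzofuran to 0.27 under N-(1-naphthyl)ethylenediamine and passed nowhere.

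Vnn1, a pantetheinase on the cell surface that is a sensitive PPAR-alpha target, rose under 1,5-naphthalenediamine. Animals 2, 4 and 5 had 9.99, 9.76 and 10.46, and feed controls 27, 28 and 29 had 9.19, 9.22 and 7.64. Every treated animal was above every control, and control 29 lay far below the others. The rise was 1.21 ± 0.31 (SE, n = 3 per group), 2.31-fold (limma adjusted p = 0.00876). Without control 29 it was 0.75 and still passed (adjusted p = 0.0463). Its second probe set gave 1.505. Under this chemical 2 of 8 Kupffer cell markers fell (7.23% of all tested genes did), with a summed log2 level of 11.1 to 11.6 against 11.4 to 12.0 in feed controls. The endothelial marker Stab2 also fell, with a summed endothelial level of 10.1 to 10.5 against 10.3 to 10.8. So did Apob of hepatocytes. Epcam of bile ducts (5.07 against 5.49), Retn of fat cells (4.70 against 5.19, with overlap) and Ckm of muscle (4.35 against 4.79) fell too. These 3 were dim, beside array medians of 4.25 to 4.35. Tested genes with means under 5, as Retn and Ckm had, shifted by a median of -0.29 in this comparison. The part of these markers in the result was not tested.

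Vnn1 did not pass elsewhere. On N-(1-naphthyl)ethylenediamine it was at 9.40, 9.55 and 9.23 (0.56 ± 0.31, SE), the lowest level with the highest controls, and on pentachloronitrobenzene at 8.79, 9.43 and 8.84 (0.19, -0.46 to 0.83), where the groups overlapped. On 2,3-benzofuran it was at 9.64, 10.04 and 9.43 against 9.13, 8.97 and 8.74 in corn oil controls, without overlap (0.65 ± 0.31, adjusted p from 0.0674 to 0.156 over the scales).

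Fabp1, the liver's fatty acid binding protein and the brightest member, fell slightly under 2,3-benzofuran, to 13.88, 13.85 and 13.71 from 13.95, 14.02 and 14.00, with no overlap. The change was -0.28 ± 0.07 (SE, n = 3 per group; limma adjusted p = 0.0467). It is the least secure of the calls: it was lost when any of 13 of the 18 arrays was left out, with adjusted p up to 0.202 and values from -0.30 to -0.23. These 13 were animals 8 and 10, corn oil controls 22, 24 and 25, animals 2 and 5 on 1,5-naphthalenediamine, all 3 on N-(1-naphthyl)ethylenediamine and all 3 on pentachloronitrobenzene. Beside the 3 falls under 2,3-benzofuran, the summed level of 8 Kupffer cell markers (log2) was 11.3 to 11.5 against 11.7 to 12.1 in corn oil controls, with 4 of the 8 fallen, and that of 9 hepatocyte markers was 16.65 to 16.68 against 16.71 to 16.75, with 2 of the 9 fallen. Stellate cell markers were at 9.66 to 9.97 against 10.12 to 10.26, with 2 of 7 fallen, and endothelial markers at 10.15 to 10.42 against 10.47 to 10.70, with 1 of 7 fallen. Of all tested genes 6.36% fell in this comparison. The part of these markers in the falls was not tested. Acadl and Cyp4a14 also missed the threshold with RNA integrity (adjusted p = 0.102 and 0.0967) or the clock index described below (0.127 and 0.0597) as a covariate.

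Pdk4, the kinase that turns off pyruvate oxidation when fat is burned, varied more among animals than any other member, over 4.49 log2 units. It was at 8.49, 9.25 and 5.90 in feed controls and at 7.90, 4.75 and 4.92 in corn oil controls. On 2,3-benzofuran it was at 7.07, 8.00 and 8.94, on pentachloronitrobenzene at 7.54, 8.62 and 5.59, on 1,5-naphthalenediamine at 8.17, 7.81 and 7.88 and on N-(1-naphthyl)ethylenediamine at 8.15, 7.72 and 6.98. The differences of 2.03 ± 0.85 between 2,3-benzofuran and corn oil and of -2.06 ± 0.85 between corn oil and feed did not pass (smallest adjusted p over the scales 0.0624 and 0.448), and the groups overlapped in both.

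The 4 lowest Pdk4 values, in animals 24, 25, 20 and 29, came from livers whose clock genes also stood apart. The index, the mean log2 signal of Per1, Per2, Per3, Dbp and Tef minus that of Arntl, Npas2 and Clock, was 1.92, 2.18, 0.724 and 0.325 in these animals. It was 2.05, 2.17 and 2.36 in the 3 animals on N-(1-naphthyl)ethylenediamine, whose Pdk4 ranked 13, 8 and 5 from the lowest of 18, and below 0 in the other 11. The hour at which the animals were killed was not used here. The part of the clock in the Pdk4 values was not tested.

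**Figure D4:**
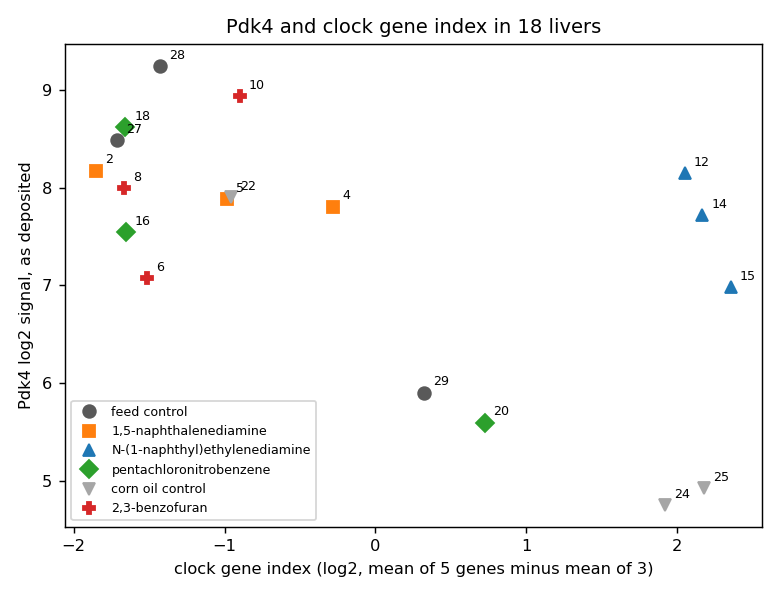
Deposited log2 signal of Pdk4 (vertical axis) against the clock gene index in log2 units (horizontal axis) in 18 livers, 1 point per animal with its number; shapes and colours mark the 6 groups. Animals 24, 25, 20 and 29 sit at the bottom with an index above 0, the animals on N-(1-naphthyl)ethylenediamine are at the right with Pdk4 from 6.98 to 8.15, and the rest are at the upper left.

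The 2 naphthalene amines allow a comparison at a matched concentration of 2000 ppm, given as the dihydrochloride in 1 case. 1,5-Naphthalenediamine carries both amino groups on the naphthalene rings, whereas N-(1-naphthyl)ethylenediamine carries 1 nitrogen on the ring, extended by a chain that ends in the other. This is 1 pair, tested over all 12169 genes, of which 4.98% differed. Of the 29 members 1 was higher and 1 lower under 1,5-naphthalenediamine (3.06% and 1.92% of all tested genes). Cpt2 was at 10.76, 10.70 and 10.96 against 10.41, 10.38 and 10.38, without overlap (0.42 ± 0.10, SE, n = 3 per group; limma adjusted p = 0.019). Cpt1a was at 10.35, 10.19 and 10.55 against 10.67, 11.10 and 11.09, also without overlap (-0.59 ± 0.17, SE, n = 3 per group; limma adjusted p = 0.0433). So of the paired enzymes of the shuttle, the outer one was lower and the inner one higher under 1,5-naphthalenediamine.

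Both differences were lost with other settings. With RNA integrity or the clock index as a covariate they were 0.38 and 0.26 for Cpt2 and -0.37 and -0.39 for Cpt1a, with adjusted p from 0.197 to 0.553. Cpt2 also missed the threshold without animal 5, 14 or 15 (adjusted p from 0.0617 to 0.105), and Cpt1a without any of 10 arrays, with adjusted p up to 0.155. These were animals 2, 4, 5, 14 and 15 of the pair, and animals 6, 8, 18, 20 and 24 of other groups, which enter through the pooled spread. Integrity and clock index differ between these 2 groups without overlap, so chemical, RNA quality and clock phase cannot be told apart. The remaining 27 members did not pass. Their 95% intervals were wide for Vnn1 (0.68, from 0.03 to 1.33), Fgf21 (0.31, -0.49 to 1.10) and Pdk4 (0.34, -1.45 to 2.13). Among the mitochondrial enzymes they lay between -0.45 and 0.37.

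Among the 3 feed chemicals together, 3 of the 29 members differed, by limma's F test (7.03% of all tested genes did): Cyp4a14 (adjusted p = 0.000695), Cpt2 (0.0262) and Eci2 (0.0314). Concentrations differ here, since pentachloronitrobenzene was fed at 8187 ppm. Cyp4a14 was 1.43 ± 0.28 higher on 1,5-naphthalenediamine than on pentachloronitrobenzene (SE; adjusted p = 0.00559; 3.71% of all tested genes differed) and 1.88 ± 0.28 higher on N-(1-naphthyl)ethylenediamine (adjusted p = 0.000771; 2.62%). No animal of these groups overlapped with pentachloronitrobenzene, and both differences passed when any 1 of the 18 arrays was left out. With the beta-actin measure as a covariate the second was 1.65 and missed the threshold (adjusted p = 0.0695). Eci2 was 0.39 ± 0.10 higher on N-(1-naphthyl)ethylenediamine than on pentachloronitrobenzene (adjusted p = 0.0311). That call was lost without any 1 of the 6 animals of the pair, with values from 0.33 to 0.44. It was kept in 7 of 13 alternatives (limma adjusted p up to 0.502). RNA integrity, clock index or beta-actin as a covariate each ended it, as did leaving out the arrays with high 18S signal. Integrity and clock index do not overlap between the groups of this pair, so chemical, RNA quality and clock phase cannot be told apart.

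Taking the mean effect of the positive carcinogens against that of the negative chemicals, each against its own control, 0 of the 29 members passed on all 3 scales (6.94% of all tested genes did). Limma gave an unadjusted p under 0.05 for 8 members on the deposited scale and 9 after quantile normalization, against 2567 and 2773 of all 12169 tested genes. On the quantile scale 5 members passed (9.11% of all tested genes) and after centring 4 (9.12%). The nearest were Cpt1a (-0.47 ± 0.14, adjusted p from 0.0304 to 0.0534), Cpt2 (0.29 ± 0.09, 0.0109 to 0.0517), Crat (0.43 ± 0.13, 0.0309 to 0.0597) and Acadl (-0.24 ± 0.07, 0.00687 to 0.0571). The brightest Crat probe set gave 0.03 under 1,5-naphthalenediamine and 0.24 under 2,3-benzofuran, where the others gave -0.41 and -0.56, and -0.03 and -0.27. Under the negative chemicals all Crat probe sets were below 0. Cyp4a14 and Vnn1 gave -0.12 (95% interval -0.64 to 0.40) and 0.55 (-0.01 to 1.11). Cyp4a14 fell under 1 chemical of each class.

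Genes around the members were counted in lists by role. Over all tested genes 8.67% rose and 7.23% fell under 1,5-naphthalenediamine, and 10.3% and 6.36% under 2,3-benzofuran. The shares were 5.23% and 3.76% under N-(1-naphthyl)ethylenediamine, and 2.09% and 2.9% under pentachloronitrobenzene. These shares stand beside every list count from here on. RNA integrity, clock index and the beta-actin measure did not overlap between animals on N-(1-naphthyl)ethylenediamine and feed controls. For every gene that rose or fell in that comparison, here and above, chemical, RNA quality and clock phase therefore cannot be told apart. Of 8 tested genes of fatty acid uptake and activation, 2 rose under 1,5-naphthalenediamine, 2 rose and 1 fell under 2,3-benzofuran, 2 rose under N-(1-naphthyl)ethylenediamine and 1 rose under pentachloronitrobenzene. The fatty acid translocase Cd36 was among those that rose in all 4 comparisons, by 3.06 ± 0.31 under 1,5-naphthalenediamine, 1.69 ± 0.31 under 2,3-benzofuran, 1.17 ± 0.31 under N-(1-naphthyl)ethylenediamine and 1.80 ± 0.31 under pentachloronitrobenzene (SE). Animals on N-(1-naphthyl)ethylenediamine, with a Cd36 mean of 8.03, overlapped the feed controls, with a mean of 6.71. The corn oil controls had a mean of 7.87, and their difference from feed controls did not pass. The acyl-CoA synthetase Acsl4 rose under 1,5-naphthalenediamine (0.45 ± 0.16) and 2,3-benzofuran (0.86 ± 0.16), where Acsl5 fell (-0.48 ± 0.08). Under pentachloronitrobenzene Cd36 thus rose while Cyp4a14 fell.

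Of 11 tested receptors and coregulators, 2 rose under 1,5-naphthalenediamine, 1 under 2,3-benzofuran, 2 under N-(1-naphthyl)ethylenediamine and 0 under pentachloronitrobenzene (4 with limma's unadjusted p under 0.05). Pparg, the related receptor of fat storage, rose under both positive carcinogens. It was at 7.03, 6.73 and 7.32 on 1,5-naphthalenediamine and at 5.56, 5.41 and 5.14 in feed controls (1.48 ± 0.18, SE; limma adjusted p = 5.98e-05), and at 7.55, 7.05 and 7.36 on 2,3-benzofuran against 5.27, 5.44 and 5.52 (1.80 ± 0.18, adjusted p = 7.20e-06). In neither comparison did animals overlap, whereas the Ppara differences there were -0.68 and -0.27. The coactivator Ppargc1a rose under 1,5-naphthalenediamine (1.54 ± 0.36, SE) and under N-(1-naphthyl)ethylenediamine (1.68 ± 0.36), and Rxra, the partner of both receptors, rose under the latter (0.49 ± 0.11). For Ppargc1a the corn oil controls, at 5.90, 6.62 and 6.56, lay above every feed control, at 4.72, 5.36 and 5.89. Animal 2 on 1,5-naphthalenediamine, at 6.35, lay within the range of the corn oil controls.

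The acyl-CoA thioesterases Acot1, of the cytosol, and Acot3, of peroxisomes, are further PPAR-alpha targets. Acot1 fell under 2,3-benzofuran, from 8.17, 8.08 and 8.04 to 6.63, 7.53 and 6.86 (-1.198 ± 0.32, SE; limma adjusted p = 0.0148). Acot3 rose under N-(1-naphthyl)ethylenediamine, from 9.31, 8.11 and 7.64 to 9.91, 10.06 and 10.55 (1.67 ± 0.30, adjusted p = 0.00276). Neither treated group overlapped its own control, and the other 4 thioesterases did not pass in any comparison with a control. For Acot3 the corn oil controls, at 9.71, 9.62 and 10.05, lay above every feed control and overlapped the animals on N-(1-naphthyl)ethylenediamine. Acot1 to Acot4 are close copies whose probes could share signal.

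Of 7 lipid droplet genes, the monoglyceride lipase Mgll rose under 2,3-benzofuran (0.61 ± 0.14) and N-(1-naphthyl)ethylenediamine (0.56 ± 0.14), and Pnpla2, the first lipase of the droplet, under the latter (0.89 ± 0.18). Plin2, a droplet coat protein and PPAR-alpha target, gave -0.43, -0.24, -0.35 and -0.38 under 1,5-naphthalenediamine, 2,3-benzofuran, N-(1-naphthyl)ethylenediamine and pentachloronitrobenzene, none of which passed. Of 9 lipogenic genes 1 fell under 1,5-naphthalenediamine (Pklr, -0.68 ± 0.14), 2 fell and 1 rose under 2,3-benzofuran (Srebf1, -0.82 ± 0.24, Scd1, -0.61 ± 0.12, and Me1, 0.75 ± 0.19), and 1 rose under N-(1-naphthyl)ethylenediamine (Acaca, 0.58 ± 0.13). Of 4 genes of glucose production, Pck1 fell under 2,3-benzofuran (-0.74 ± 0.16). The only ketogenic gene tested, Bdh1, passed nowhere. Between corn oil and feed controls 0 genes of these lists passed, and limma's unadjusted p was under 0.05 for 0 to 6 genes of each list, 6 being among the lipogenic genes.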

How the data were processed

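Liver RNA of 18 mice was measured, and per the labels' protocols it was isolated with Trizol and RNeasy and labelled with biotin. The authors deposited log2 signals per probe set; how they were normalized and summarised is not stated in the labels or headers. The members and gene lists were chosen with earlier results of these data known.

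Probe sets were named from the platform annotation, with symbols updated by Entrez identifier. A probe set was kept if above its array's median in at least 3 of 18 arrays, and the brightest stood for its gene (12169 genes). A model with 6 group means was fitted with limma 3.58.1 in R 4.3.3 (empirical Bayes with trend, 12 residual degrees of freedom) on 3 scales, with Benjamini-Hochberg adjustment over all genes. It was tried on simulated data in which all genes of treated arrays were raised equally. In the data the shift varied with signal. Under 1,5-naphthalenediamine its median, relative to all tested genes, was -0.29 for means under 5 and 0.04 for means of 9 or more. Standard errors are the model's, on the deposited scale. The 95% intervals treat the median change as fixed. Every animal's value is given for members with a called change of at least 1.5-fold and for Ppara; values of other members, and of Pparg, Acot1, Acot3 and Cyp4a12a, were chosen for print after they were seen. From other lists up to 3 called genes with the largest t were named. A planned list of genes most like the mean of the called members was not made, because those members moved in opposite directions. The beta-actin covariate and the alternatives for single genes in the direct comparisons were added after the data were seen. Array number and signal over background limit the precision.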

Additional observations from a re-analysis of the deposited data

How the results depend on the processing

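No paired analysis was possible because the groups share no animal numbers. Counts of changed members, which were 2, 3, 2 and 1 in the order 1,5-naphthalenediamine, 2,3-benzofuran, N-(1-naphthyl)ethylenediamine, pentachloronitrobenzene, moved as follows. Deposited values alone gave 8, 7 and 7 for the first 3 chemicals, quantile normalized values 6 and 8 for the first pair, and centred values 7 and 8, with 2 for pentachloronitrobenzene. Array weights gave 1, 7 and 0 for the first 3. An adjusted p under 0.01 gave 1, 0, 0 and 0. Fitting only the groups compared gave 0 for 1,5-naphthalenediamine, 1 for N-(1-naphthyl)ethylenediamine and 0 for pentachloronitrobenzene. RNA integrity as a covariate gave 1 for 2,3-benzofuran and 0 for N-(1-naphthyl)ethylenediamine, the clock index 0 for 2,3-benzofuran, the beta-actin measure (added after the data were seen) 0 for N-(1-naphthyl)ethylenediamine, and leaving out the 5 arrays with high 18S signal 0 for both.

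For the naphthalene amine pair (2 members), quantile normalized values gave 4, no filter, the mean of probe sets and no variance trend 1 each, and RNA integrity, clock index, beta-actin, the stricter threshold and leaving out the 5 arrays 0 each. For the 3 feed chemicals (3 members), quantile values and array weights gave 5 each, and RNA integrity, the stricter threshold and leaving out the 5 arrays 1 each, which was Cyp4a14. For positive against negative chemicals (0 members), quantile values gave 5, centred values 4, array weights 4 and the mean of probe sets 1; fitting only the groups compared needs all 6 groups and was not run. Leaving out 1 array gave 1 to 4, 0 to 5, 0 to 3 and 0 to 1 members for the chemicals in that order, 0 to 0 for corn oil, 0 to 3 for the amine pair, 0 to 3 for positive against negative and 1 to 4 for the feed chemicals. The counts at these ends came without animal 4 (4) and without 2 or 5 (1) for 1,5-naphthalenediamine, without corn oil control 25 (0) or feed control 29 (5) for 2,3-benzofuran, without 12 for N-(1-naphthyl)ethylenediamine, without 16 for pentachloronitrobenzene, without 5, 14 or 15 (0) for the pair, without feed control 29 (3) for positive against negative, and without 14 or 15 (1) for the feed chemicals. The cause of these moves was not tested, except that leaving out arrays leaves fewer samples and a stricter threshold passes fewer genes. Under these alternatives no called member changed direction. Vnn1 under 1,5-naphthalenediamine kept its call in 14 of 15 alternatives, and lost it when only the groups compared were fitted (adjusted p = 0.0578). Cyp4a14 kept its call in 13 of 15 under pentachloronitrobenzene and in 11 of 15 under 2,3-benzofuran, where RNA integrity gave -0.85 (adjusted p = 0.0967) and the clock index -1.15 (0.0597).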

Other observations

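The genes whose signal followed Cyp4a14 most closely over the 18 arrays, after quantile normalization, were Zfp36l2 (Pearson r = 0.884), Hsd17b11 (0.880) and Phykpl (0.869). They were picked from all tested genes by this value after the data had been seen, the points share 6 groups of 3 animals, and the values are a description.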
